A study of Mus musculus with 8 samples.

Results

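The 10 genes described here are the TGF-beta ligands (*Tgfb1*, *Tgfb2*, *Tgfb3*), the TGF-beta receptors (*Tgfbr1*, *Tgfbr2*, *Tgfbr3*) and genes that carry, answer or restrain the signal (*Smad3*, *Smad7*, *Pmepa1*, *Skil*), found by symbol among the 28432 genes of a table of read counts. The counts are bulk RNA-seq of whole mouse retina at E15.5, with both retinas of 1 embryo as 1 sample, 4 *Lhx2* CKO and 4 control samples. CKO embryos were *Lhx2* flox/-; *Hes1* CreERT2/+ and control embryos were *Lhx2* flox/+; *Hes1* CreERT2/+. Embryos of both genotypes therefore carried 1 copy of the Cre driver at the *Hes1* locus, and their dams all received tamoxifen by gavage at E11.5, at 0.15 to 0.2 mg/g. The driver deletes the floxed *Lhx2* exons in retinal progenitor cells (RPCs) and the cells they make later, in a retina that still holds cells of other origin. Embryos with reporter fluorescence were chosen, and small eyes helped to sort CKO embryos. Lhx2 is a LIM-homeodomain transcription factor of RPCs. The floxed copy can be deleted in both genotypes, which leaves control RPCs 1 wild-type copy. The other copy in CKO embryos is a knockout allele, lacking before tamoxifen. The comparison asks which RNAs differ between retinas whose RPCs lose the last copy at the start of neurogenesis and retinas whose RPCs keep 1.

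TGF-beta ligands are secreted as latent complexes, in which a propeptide keeps the ligand from its receptors until integrins, proteases or thrombospondin release it. Free ligand binds Tgfbr2, which recruits and activates Tgfbr1, and the pair phosphorylates Smad2 and Smad3, which enter the nucleus with Smad4. Many of the genes they induce, among them *Smad7*, *Pmepa1* and *Skil*, act to damp the pathway. In the developing mouse retina, *Tgfb2* and *Tgfb3* are known for their part in developmental cell death.

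All 10 genes passed the filter on low counts (at least 20 normalized counts in at least 3 of 8 samples), 9 of them by their levels in both genotypes and *Tgfb1* by only 1 CKO and 2 control samples. A normalized count is a read count divided by the sample's size factor, so it compares samples for 1 gene but not genes of different length. In the quasi-likelihood test of edgeR, with genotype as the only term and p-values adjusted over 13891 genes, 3 of the 10 fell in CKO at an adjusted p below 0.001, none rose and 7 did not pass. None rose at an unadjusted p below 0.05 either, or at the cutoff in DESeq2 or limma voom. Over all genes tested, 21.3% rose and 22.3% fell at an unadjusted p below 0.05, and 8.34% rose and 8.87% fell at the cutoff in DESeq2. Of all genes tested, 4.97% fell and 3.64% rose at this cutoff, 8.61% in either direction. The members that fell were *Tgfb2*, *Pmepa1* and *Tgfb3*. In 4 of the 10 genes every CKO sample lay below every control sample, against 17.9% of all genes tested, and in none did every CKO sample lie above. The genotypes did not overlap, in either direction, in 33.8% of all genes tested. The median log2 fold change (log2FC, CKO over control) of the 10 genes was -0.25, beside 0.01 over all genes tested. The genes that passed were 2 of the 3 ligands and 1 induced inhibitor, while no receptor gene passed.

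**Figure D1:**
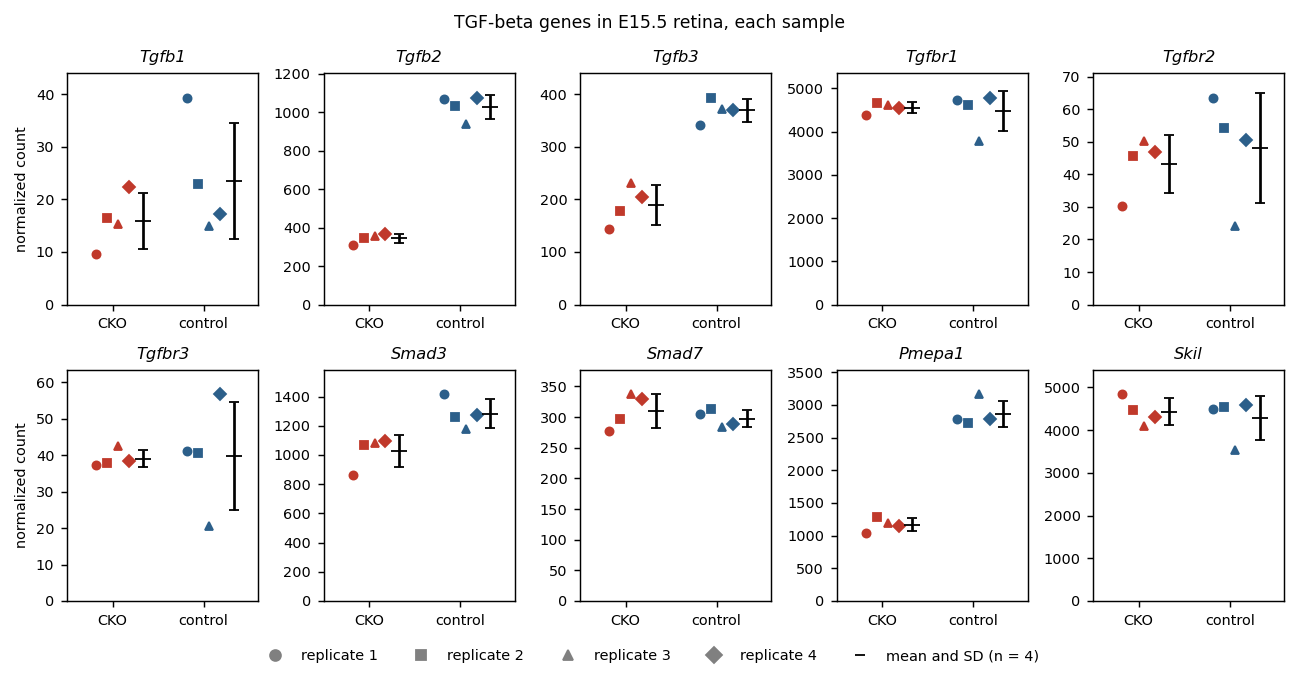
Normalized counts of the 10 TGF-beta genes in each sample, with 1 panel per gene, CKO on the left and control on the right of each panel, and the y axis starting at 0. Symbols are replicates and bars give the mean and SD (n = 4 per genotype). CKO and control points are separate for *Tgfb2*, *Tgfb3*, *Smad3* and *Pmepa1* and overlap for the other 6 genes.

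Sequencing depth was 13955259 to 19099937 reads counted per CKO sample and 13143587 to 15063867 per control sample. The main axis of variation separated the genotypes (50.2% of the variance), and the next one (17.3%) set CKO replicate 1 and control replicate 3 apart from their groups. Control replicate 3 also had relatively more reads from short genes: its median log2 difference to the other controls was 0.15 in the lowest of 4 classes of exonic length and -0.15 in the highest. *Lhx2* had 2557, 2765, 2853 and 2868 normalized counts in CKO and 3478, 3082, 3631 and 3138 in control samples (log2FC -0.27, adjusted p 0.0050 in edgeR). Because reads of its undeleted exons are counted, this does not measure the deletion. Summed over 12 RPC markers, normalized counts were 54720 to 63813 in CKO and 100340 to 108230 in control samples, and summed over 12 retinal ganglion cell (RGC) markers they were 79100 to 84034 in CKO and 58640 to 69345 in control samples. The sums hide members that differ from the rest. Of the 12 RPC markers 9 fell, 1 rose and 2 did not pass the cutoff. Of the 12 RGC markers 5 rose, none fell and 7 did not pass. Over all genes tested, 4.97% fell and 3.64% rose. In bulk RNA, fewer cells of a type and less RNA per cell cannot be told apart, and this holds for each result that follows.

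Of the ligands, *Tgfb2* had the largest difference. It lies on the minus strand of chromosome 1 (mm10, positions 186622792 to 186705989) and its principal transcript has 7 exons. It had 311, 345, 358 and 365 normalized counts in the 4 CKO samples, against 1070.3, 1029.9, 941 and 1073 in the 4 control samples. The highest CKO sample was thus far below the lowest control sample, and replicates lay close together in both genotypes. The mean was 345 ± 24.1 in CKO and 1029 ± 61.8 in control samples (SD, n = 4 each). *Tgfb2* fell by 1.58 on the log2 scale (SE 0.07, 95% interval of the log2FC -1.73 to -1.43, adjusted p 1.1e-07 in edgeR), a level 2.99-fold lower, and ranked 10 of 13891 genes by p-value. Leaving out any 1 sample gave log2FC values between -1.62 and -1.54. The libraries did not keep strand, and 124 of the 5791 exonic bases of *Tgfb2* overlap *Gm29491* on the other strand.

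The starts of *Tgfb2* and *Tgfb1* are shown side by side because both encode ligands of the same receptors, yet *Tgfb2* carried the largest difference and *Tgfb1* was barely detected in either genotype. Each line gives the 250 bases before the transcription start from RefSeq (GRCm38.p6), for *Tgfb2* chr1:186705990-186706239 on the minus strand and for *Tgfb1* chr7:25686752-25687001 on the plus strand, 5′ to 3′, with capitals marking every match to 1 of 6 motifs on either strand.
Tgfb2: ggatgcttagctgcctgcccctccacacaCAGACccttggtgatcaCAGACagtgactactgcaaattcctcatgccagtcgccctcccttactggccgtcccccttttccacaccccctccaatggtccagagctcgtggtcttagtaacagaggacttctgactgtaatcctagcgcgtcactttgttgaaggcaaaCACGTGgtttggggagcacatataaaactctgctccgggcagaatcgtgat
Tgfb1: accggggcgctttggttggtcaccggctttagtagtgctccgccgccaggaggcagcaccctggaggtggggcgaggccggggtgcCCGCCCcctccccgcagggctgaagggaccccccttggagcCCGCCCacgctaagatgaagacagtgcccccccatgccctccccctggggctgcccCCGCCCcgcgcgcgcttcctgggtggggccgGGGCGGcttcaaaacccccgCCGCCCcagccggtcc
The motifs searched were the Smad box CAGAC, the palindromic Smad element GTCTAGAC, the homeodomain core TAATTA, the cAMP response element TGACGTCA, the E-box CACGTG and the GC box GGGCGG. Their matches overlap nowhere in these lines. In *Tgfb2*, CAGAC begins 221 and 204 bases before the start and CACGTG 51 bases before it, and the other 4 motifs have no match. In *Tgfb1*, GGGCGG or its reverse complement begins at 5 places, 164, 123, 67, 36 and 16 bases before the start, and the other 5 motifs have no match. Among 32851 such windows of all genes, 42.2% hold CAGAC, 6.02% CACGTG, 32.7% GGGCGG, 4.84% TAATTA, 1.55% TGACGTCA and 0.167% GTCTAGAC. GC content was 53.6% for *Tgfb2* and 75.2% for *Tgfb1*. Windows of 5 of the 10 genes were found in the RefSeq table used, those of *Tgfb1*, *Tgfb2*, *Tgfbr1*, *Tgfbr2* and *Smad3*. *Tgfbr2* also holds CAGAC, 160 bases before the start. GGGCGG or its reverse complement also begins 133 and 95 bases before the start of *Tgfbr1* and 234 and 171 bases before that of *Smad3*. Neither motif is thus particular to *Tgfb2* or *Tgfb1*, and a link between the matches and RNA levels was not tested.

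*Tgfb3*, the ligand closest in level to *Tgfb2*, also fell. It lies on the minus strand of chromosome 12 (positions 86056745 to 86079041). Its normalized counts were 144, 178, 232 and 205 in CKO samples, against 341, 393, 372 and 369.6 in control samples. The genotypes did not overlap, although CKO samples spread more widely than control samples. The means were 189.7 ± 37.6 in CKO and 369 ± 21.1 in control samples, a log2FC of -0.97 (SE 0.13, 95% interval -1.24 to -0.69, adjusted p 1.7e-04 in edgeR) or a level 1.95-fold lower. The adjusted p stayed between 1.54e-04 and 9.49e-04 when any 1 sample was left out. *Tgfb3* shares 420 of its 3383 exonic bases with *Gm37804* and *Gm48008* on the other strand. The log2FC intervals of *Tgfb2* and *Tgfb3* did not overlap, but the difference between the ligands was not tested.

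*Tgfb1*, the ligand best known from immune and vascular cells, was near the limit of detection, with 66 reads over the CKO samples and 91 over the control samples. Its normalized counts were 9.53, 16.4, 15.3 and 22.4 in CKO and 39.3, 22.9, 14.8 and 17.2 in control samples. The genotypes overlapped, and control replicate 1 stood above all other samples. The log2FC was -0.59 with a 95% interval of -1.37 to 0.18 (adjusted p 0.22 in edgeR), so the counts allow a level from 0.386 to 1.14 times that of control. At this depth the counts do not tell levels within that range apart.

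Set against exon length, as reads per kilobase of exon scaled to a common library size (RPKM), the ligand transcripts of control retina were mostly *Tgfb2* and *Tgfb3*. *Tgfb2* was at 3.87 ± 0.248 RPKM in CKO and 11.8 ± 0.639 RPKM in control samples. *Tgfb3* was at 3.65 ± 0.722 RPKM in CKO and 7.22 ± 0.444 RPKM in control samples. Thus *Tgfb2* exceeded *Tgfb3* beyond the replicate spread in control retina, while in CKO retina their ranges overlapped. *Tgfb1* was at 0.205 ± 0.0664 RPKM in CKO and 0.309 ± 0.144 RPKM in control samples (SD, n = 4 each throughout). Summed over the 3 ligands, CKO samples held 6.46 to 8.74 RPKM and control samples 18.4 to 19.9 RPKM. *Tgfb2* made up 46.3% to 54.7% of that sum in CKO and 59.0% to 63.0% in control samples, and *Tgfb3* made up 43.4% to 51.4% in CKO and 34.4% to 39.9% in control samples. The share of *Tgfb1* was 1.93% to 3.47% in CKO and 1.07% to 2.65% in control samples. These shares are descriptions, and they rest on 1 exonic length per gene.

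**Figure D2:**
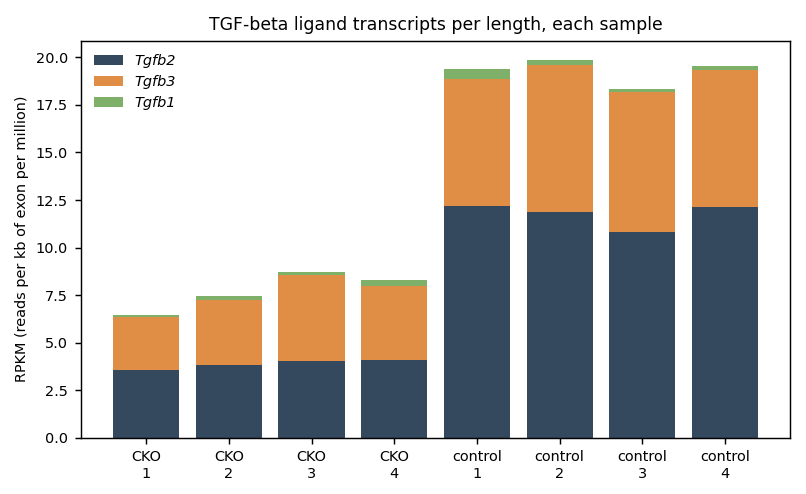
RPKM (reads per kilobase of exon at a common library size) of *Tgfb2*, *Tgfb3* and *Tgfb1*, stacked, with 1 bar per sample, CKO samples on the left and control samples on the right. The stacks reach 6.46 to 8.74 in CKO and 18.4 to 19.9 in control samples, and the *Tgfb1* layer is thin in all 8.

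No receptor gene passed the cutoff, and their levels spanned a wide range. *Tgfbr1* encodes the type I receptor kinase that phosphorylates Smad2 and Smad3. It had 4391, 4658, 4625 and 4546 normalized counts in CKO and 4740.4, 4608, 3778 and 4776 in control samples. All samples but control replicate 3 lay within a narrow band. The log2FC was 0.03 (95% interval -0.13 to 0.18, adjusted p 0.80 in edgeR), and -0.05 without control replicate 3. Per length *Tgfbr1* had the highest mean of the 10 genes, at 45.4 ± 0.933 RPKM in CKO and 45.3 ± 4.55 RPKM in control samples, although in control replicate 3 *Pmepa1* was above it (42.9 against 38.5 RPKM).

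*Tgfbr2*, which encodes the type II receptor that binds ligand first, was low. It had 30.2, 45.7, 50.3 and 47.0 normalized counts in CKO and 63.4, 54.2, 24.0 and 50.6 in control samples. The genotypes overlapped widely, with control replicate 3 the lowest sample of all. The log2FC was -0.17 with a 95% interval of -0.76 to 0.42 (adjusted p 0.67 in edgeR).

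*Tgfbr3* encodes betaglycan, a co-receptor that presents the *Tgfb2* product to the signaling receptors. It had 37.3, 37.9, 42.7 and 38.4 normalized counts in CKO and 41.3, 40.6, 20.6 and 56.7 in control samples. Control samples enclosed the CKO samples on both sides, and the log2FC was -0.04 (95% interval -0.59 to 0.52, adjusted p 0.93 in edgeR). Its sign turned to 0.19 without control replicate 4. Per length the type II receptor and betaglycan stood close together and far under *Tgfbr1*: *Tgfbr2* was at 0.344 ± 0.0696 RPKM in CKO and 0.388 ± 0.136 RPKM in control samples, and *Tgfbr3* at 0.389 ± 0.0257 RPKM in CKO and 0.402 ± 0.147 RPKM in control samples. The SD of neither gene separates it from the other. The 95% intervals allow CKO levels of 0.590 to 1.34 times control for *Tgfbr2* and of 0.664 to 1.43 times control for *Tgfbr3*.

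Of the genes that carry or answer the signal, *Pmepa1* had the largest difference. Pmepa1 is a membrane protein induced by TGF-beta that holds back Smad2 and Smad3, and its gene lies on the minus strand of chromosome 2 (positions 173224458 to 173276533). It had 1039.9, 1284, 1200.1 and 1145 normalized counts in CKO samples, against 2779, 2730.5, 3161 and 2781 in control samples. The lowest control sample was far above the highest CKO sample. The means were 1167 ± 103 in CKO and 2863 ± 200.3 in control samples, a log2FC of -1.29 (SE 0.07, 95% interval -1.44 to -1.15, adjusted p 3.1e-07 in edgeR) or a level 2.45-fold lower, and *Pmepa1* ranked 21 of 13891 genes by p-value. Its log2FC was between -1.33 and -1.24 without any 1 sample. Per length it was at 13.9 to 16.8 RPKM in CKO and 37 to 42.9 RPKM in control samples, which put it above *Skil* in control retina and below *Skil* in CKO retina.

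*Smad3*, the gene of the receptor-activated transcription factor, lies on the minus strand of chromosome 9 (positions 63646767 to 63757994). It had 864, 1066, 1079.7 and 1097 normalized counts in CKO and 1415, 1263, 1180.5 and 1276 in control samples. Every CKO sample was below every control sample, with a gap smaller than the range within either genotype. The log2FC was -0.32 (SE 0.08, 95% interval -0.50 to -0.15, adjusted p 0.0087 in edgeR), which did not pass the cutoff of 0.001 but would pass 0.05, as 17.4% of all genes did in this direction and 33.3% in either. The adjusted p ranged from 6.39e-04, without CKO replicate 1 and control replicate 3 together, to 0.0277. It was 9.43e-04 with no filter on low counts. Per length *Smad3* was at 12.0 ± 1.20 RPKM in CKO and 15.3 ± 1.11 RPKM in control samples.

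*Smad7* encodes the inhibitory Smad that blocks the type I receptor. It had 277, 297, 337 and 329.7 normalized counts in CKO and 305, 313, 283 and 289 in control samples. The genotypes overlapped, and the log2FC was 0.06 (95% interval -0.12 to 0.24, adjusted p 0.63 in edgeR). Its level per length was 4.47 ± 0.395 RPKM in CKO and 4.36 ± 0.217 RPKM in control samples.

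*Skil* encodes SnoN, a nuclear repressor of Smad target genes. It had 4834, 4469, 4099 and 4312 normalized counts in CKO and 4501, 4543, 3522 and 4592 in control samples. Again the genotypes overlapped and control replicate 3 was the lowest sample. The log2FC was 0.05 (95% interval -0.14 to 0.24, adjusted p 0.71 in edgeR), and -0.03 without control replicate 3. Per length *Skil* was at 29.7 ± 2.23 RPKM in CKO and 29.3 ± 3.39 RPKM in control samples. Of the 3 induced inhibitors among the 10 genes, *Pmepa1* fell, and *Smad7* and *Skil* did not pass, with 95% intervals of the log2FC between -0.14 and 0.24.

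**Figure D3:**
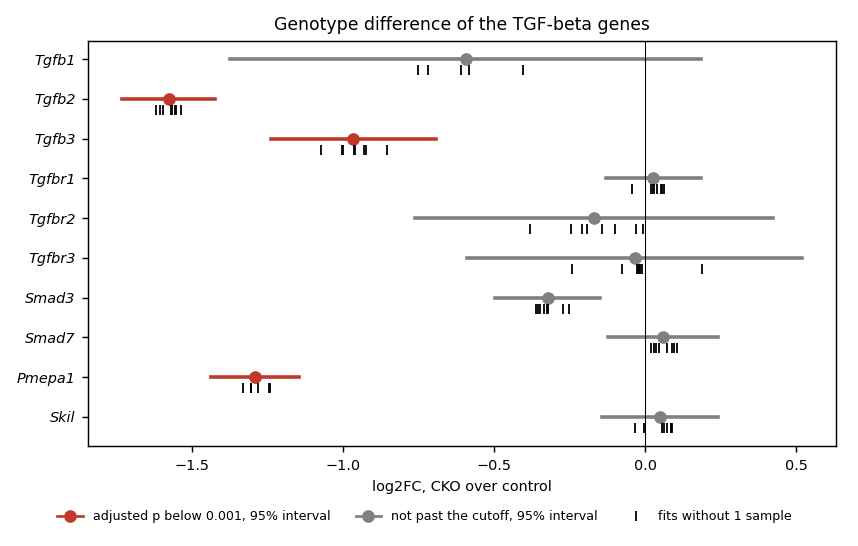
The log2 fold change of each TGF-beta gene, CKO over control, on the x axis, with 1 row per gene. Points with bars give the edgeR estimate and its 95% interval, in red where the adjusted p is below 0.001, and ticks under each bar give the estimates without 1 sample. *Tgfb2*, *Tgfb3* and *Pmepa1* lie left of 0 with all their ticks, and *Tgfb1*, *Tgfbr2* and *Tgfbr3* have the widest intervals.

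The rest of the pathway was read from 5 lists of 77 genes, of which 60 were tested. Of these, 3 rose, 5 fell and 52 did not pass, with a median log2FC of 0.05, against 8.61% called and a median of 0.01 over all genes tested. The latent complex and its activation had the most calls, and its genes lay on both sides of 0. Of 14 genes 11 were tested, 1 rose, 2 fell and 8 did not pass, with a median log2FC of -0.34.

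*Itgb8* encodes the beta subunit of the integrin that frees latent TGF-beta in the developing brain and retina of mice. It had 2096, 2233, 2214 and 2157 normalized counts in CKO, against 1338, 1368, 1078 and 1460.2 in control samples. Every CKO sample was above every control sample, and *Itgb8* rose with a log2FC of 0.73 (SE 0.08, adjusted p 5.4e-05 in edgeR). *Itgav*, the gene of its alpha partner, had 478 ± 28.1 in CKO and 521 ± 75.0 normalized counts in control samples and did not pass (adjusted p 0.38 in edgeR).

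*Fbn2* and *Ltbp1*, a fibrillin and a latent TGF-beta binding protein that anchor the latent complex in the extracellular matrix, fell. *Fbn2* had 536, 570.3, 671 and 769 normalized counts in CKO, against 2725, 2763, 1215 and 2263 in control samples, and its log2FC was -1.82 (SE 0.22, adjusted p 1.1e-04 in edgeR). *Ltbp1* had 149, 146, 197 and 173 normalized counts in CKO, against 838, 764, 253 and 606 in control samples, and its log2FC was -1.90 (SE 0.30, adjusted p 5.8e-04 in edgeR). In both genes control replicate 3 was the control sample nearest to the CKO samples. Without it *Ltbp1* had a log2FC of -2.15 (adjusted p 2.7e-06), whereas without any other single sample, with voom or with sex as a covariate its adjusted p was 0.00114 to 0.00367, past the cutoff in none of them.

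*Fbn1*, the other fibrillin of the list, did not pass in the main edgeR fit, and control replicate 3 was again the lowest control. *Fbn1* had 121, 134, 127 and 161 normalized counts in CKO and 376, 407, 169 and 365 in control samples (log2FC -1.29, adjusted p 0.0014 in edgeR, and 5.51e-06 without control replicate 3). It passed with DESeq2 (adjusted p 1.5e-07) and in edgeR with no filter on low counts (adjusted p 1.74e-08). *Itgb6*, the beta subunit of the epithelial integrin that frees latent TGF-beta, had 0 reads in CKO and 2 in control samples. Part of *Fbn1* and of *Fbn2* overlaps another gene on the opposite strand.

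**Figure D4:**
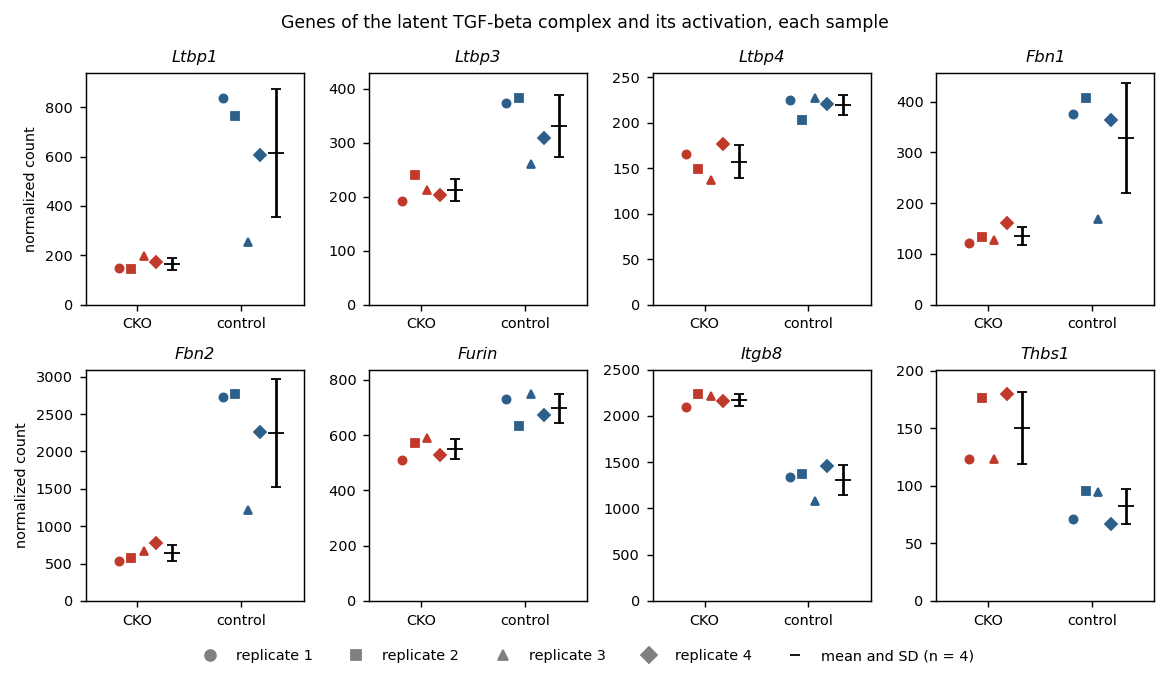
Normalized counts in each sample for 8 genes of the latent TGF-beta complex and its activation, CKO on the left and control on the right of each panel, with the y axis starting at 0. Symbols are replicates and bars give the mean and SD (n = 4 per genotype). *Itgb8* and *Thbs1* are higher and the other 6 lower in every CKO sample than in every control sample, with control replicate 3 nearest to the CKO samples in *Ltbp1*, *Ltbp3*, *Fbn1* and *Fbn2*. Panels were chosen after the values were seen, and the separation in all 8 follows from that choice. Of the 11 genes tested in this list, the 3 not plotted overlapped between the genotypes. Over all genes tested, 33.8% did not overlap, in either direction.

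Among 9 other receptors and co-receptors, all tested, *Cd109* and *Bambi* fell, 7 did not pass and none rose (4 rose at an unadjusted p below 0.05 in edgeR, beside 21.3% of all genes, and 2 rose at the cutoff in DESeq2, beside 8.34%). The median log2FC of the list was 0.17. Both genes that fell encode proteins that restrain TGF-beta signaling, Cd109 as a co-receptor and Bambi as a receptor without a kinase. *Cd109* had 73.1, 80.1, 78.8 and 69.4 normalized counts in CKO, against 167, 172, 145 and 168 in control samples (log2FC -1.11, SE 0.11, adjusted p 2.1e-05 in edgeR). *Bambi* had 97.7, 111, 120.3 and 115 normalized counts in CKO, against 241, 192, 219 and 218 in control samples (log2FC -0.97, SE 0.10, adjusted p 4.0e-05 in edgeR). CKO and control samples did not overlap in either gene. *Acvr1c*, a type I receptor of nodal and activins, had 18.3, 25.8, 19.7 and 16.0 normalized counts in CKO and 54.4, 55.2, 50.2 and 35.4 in control samples. It passed the filter on low counts by its control samples alone. It did not pass the cutoff in edgeR (adjusted p 0.0011) but did in DESeq2 (adjusted p 8.44e-05). *Acvr2a*, a type II activin receptor, averaged 1438 ± 63.9 in CKO and 1113 ± 92.0 in control samples. *Acvr2a* did not pass in edgeR either (adjusted p 0.0011) but did in DESeq2 (adjusted p 2.25e-06). Part of *Acvr1c*, of *Acvr2a* and of *Bhlhe40*, described further on, overlaps a gene on the other strand.

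Of 14 activin, nodal and GDF ligands and antagonists, 11 were in the table and 5 had counts enough to test. None passed in edgeR, 2 rose and none fell at an unadjusted p below 0.05, beside 21.3% and 22.3% of all genes, and 1 rose at the cutoff in DESeq2, beside 8.34%. *Mstn* (myostatin) averaged 1204 ± 82.5 normalized counts in CKO and 936 ± 99.9 in control samples (log2FC 0.37, adjusted p 0.0046 in edgeR). Its close relative *Gdf11*, known to limit RGC number in the mouse retina, averaged 1384 ± 98.9 in CKO and 1181 ± 116 in control samples (log2FC 0.23, adjusted p 0.033 in edgeR). The activin and inhibin subunit genes *Inhbb* and *Inha* had log2FC values of 0.37 and 0.35 (adjusted p 0.13 and 0.14 in edgeR).

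Within the cell, 20 genes of Smad transduction and its regulators were all tested. *Smurf1*, a ubiquitin ligase that takes Smads and receptors to degradation, rose, none fell and 19 did not pass, with a median log2FC of 0.03. At an unadjusted p below 0.05 in edgeR, 4 rose and 1 fell, beside 21.3% and 22.3% of all genes, and at the cutoff in DESeq2 3 rose and 1 fell, beside 8.34% and 8.87%. *Smurf1* had 1368, 1489, 1325 and 1447 normalized counts in CKO, against 1075, 1101, 1114 and 1118 in control samples (log2FC 0.35, SE 0.05, adjusted p 2.8e-04 in edgeR). Its adjusted p was 0.00108 to 0.00184 without CKO replicate 2 or 4 or control replicate 1, 2 or 4, and the call was then lost. *Nedd4l* and *Rnf111*, 2 further ubiquitin ligases of the pathway, had log2FC values of 0.40 and 0.26 (adjusted p 0.0019 and 0.0035 in edgeR), and *Tgif1*, a Smad corepressor gene, had -0.43 (adjusted p 0.0037). *Smad2* and *Smad4*, the partners of *Smad3*, had log2FC values of 0.13 (95% interval 0.01 to 0.26, adjusted p 0.090) and 0.01 (95% interval -0.11 to 0.14, adjusted p 0.87). Of the 3 Smads that carry the signal, only *Smad3* had an adjusted p below 0.05 in edgeR.

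Of 20 genes that TGF-beta induces in many cell types, 15 were tested. *Bhlhe40* rose, *Col1a2* fell and 13 did not pass, with a median log2FC of 0.08. Over all genes tested, 3.64% rose and 4.97% fell at this cutoff. At an unadjusted p below 0.05 in edgeR, 5 rose and 4 fell, beside 21.3% and 22.3% of all genes. With DESeq2, 2 rose and 2 fell at the cutoff, beside 8.34% and 8.87%. *Bhlhe40*, a transcriptional repressor gene, had 106, 83.6, 106 and 103.5 normalized counts in CKO, against 46.3, 57.3, 46.8 and 41.5 in control samples (log2FC 1.05, SE 0.15, adjusted p 3.1e-04 in edgeR). *Col1a2*, a collagen gene of mesenchyme, had 10.3, 20.7, 26.3 and 37.3 normalized counts in CKO, against 116, 87.5, 92.5 and 69.9 in control samples (log2FC -1.98, SE 0.30, adjusted p 4.5e-04 in edgeR). The groups were apart in both, but each call was lost in 4 of the 8 fits without 1 sample, *Bhlhe40* without CKO replicate 3 or 4 or control replicate 1 or 4 and *Col1a2* without CKO replicate 2 or 3 or control replicate 1 or 2, at adjusted p 0.00152 to 0.00223. *Klf11*, a TGF-beta early response gene, averaged 529 ± 15.3 in CKO and 420.2 ± 6.88 in control samples (adjusted p 0.0012 in edgeR), and *Snai2*, a zinc finger repressor gene that passed the filter by its control samples alone, averaged 14.8 ± 2.03 in CKO and 33.2 ± 7.06 in control samples (adjusted p 0.0026).

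**Figure D5:**
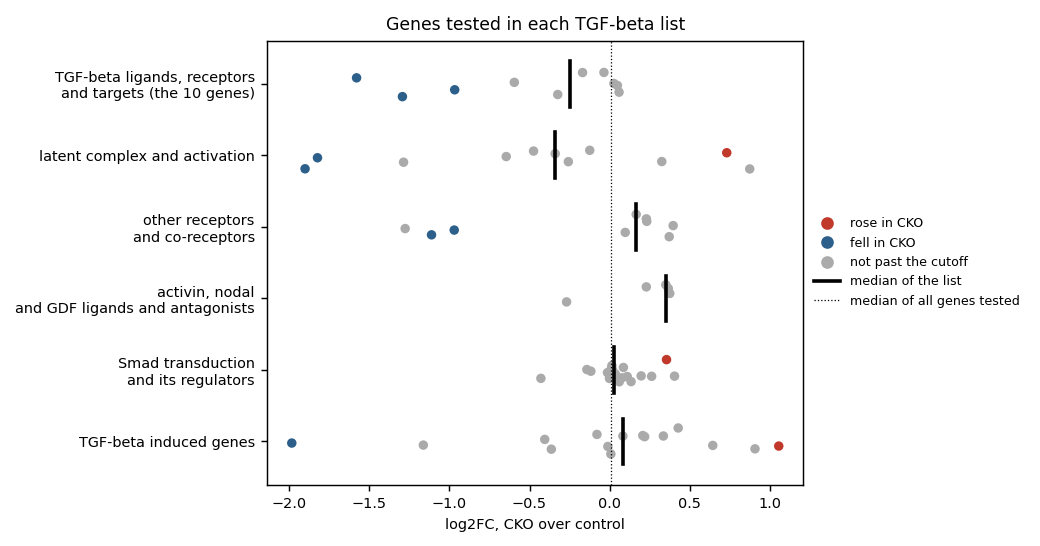
The log2 fold change, CKO over control, of each tested gene in the 10 TGF-beta genes and in 5 further pathway lists, 1 row per list. Red points rose, blue points fell and grey points did not pass the cutoff, thick bars are list medians and the dotted line is the median of all genes tested. The list medians run from -0.34 for the latent complex to 0.35 for activin, nodal and GDF ligands and antagonists.

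Other cell types of the eye that make or answer TGF-beta were read through their markers. All 10 macrophage and microglia markers had log2FC values below 0, as did 6839 of 13891 genes tested. Their adjusted p-values were 0.040 or more in edgeR, and in all 10 the genotypes overlapped. Their summed normalized counts were 699.9 to 979 in CKO and 913 to 1098 in control samples. Endothelial markers without *Kdr*, which RPCs also express, summed to 264 to 634 in CKO and 451 to 662 in control samples. With *Kdr* the sums were 2742 to 3696.5 in CKO and 4494 to 4807 in control samples and did not overlap. Of the 9 tested, 2 fell (*Kdr* and *Cldn5*), beside 4.97% of all genes. Of 10 periocular mesenchyme markers 3 were tested and *Col1a2* fell, beside 4.97% of all genes. *Pdgfra* had a log2FC of 1.27 (adjusted p 0.016 in edgeR) and did not pass. The list summed to 271 to 585 in CKO and 207 to 290 in control samples, and the defining markers *Foxc1*, *Foxc2* and *Twist1* averaged under 10 reads per sample. Pericyte markers without *Notch3* summed to 313 to 671 in CKO and 365 to 549.8 in control samples, and with it to 1506 to 1950 and 1384 to 1792. Pigment epithelium markers without *Otx2*, which the study uses to mark photoreceptor precursors, summed to 122 to 156 in CKO and 251 to 441 in control samples. With *Otx2* the sums overlapped, at 3564 to 4190 in CKO and 3675 to 3988 in control samples. Of 8 pigment epithelium markers 6 were tested. *Pmel* fell, beside 4.97% of all genes, and 5 did not pass. *Rpe65* and *Mlana* were under 10 reads per sample. Lens markers summed to 73.2 to 147 in CKO and 57.7 to 109 in control samples, and blood markers to 601 to 1924 in CKO and 378 to 2416 in control samples. The pigment epithelium sums without *Otx2* differed between the genotypes in the same direction as *Tgfb2*, *Tgfb3*, *Pmepa1*, *Ltbp1* and *Fbn2*. So did the RPC sums and the endothelial sums with *Kdr*, while the RGC sums differed in the direction of *Itgb8*. The part of any of these cell types in the results was not tested.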

How the data were processed

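The authors made unstranded poly(A) libraries, sequenced them in single-end reads, mapped them to mm10 with TopHat 2, and deposited raw counts of reads per gene from HTSeq. Cufflinks is also named in the submitters' processing notes. No source used here gives versions of the mapping and counting tools, the annotation release or a strand setting. Of 28432 gene IDs, 28232 were found in GENCODE M21, which gave coordinates and exonic lengths. Samples were grouped by the genotype in their labels, and none was left out. In the study the replicates of each genotype came from fewer litters than embryos, harvested on consecutive days, so some embryos of a genotype shared a dam. Litter and day of single embryos could not be assigned and entered no fit. The fits therefore treat all embryos as independent. Genes with at least 20 normalized counts (median-of-ratios size factors) in at least 3 samples were tested with the quasi-likelihood test of edgeR 4.0.16 (R 4.3.3, TMM scaling, genotype as the only term, Benjamini-Hochberg adjustment, cutoff 0.001). The count filter and the cutoff follow the study, which used DESeq2 and not edgeR. Each SE was obtained by dividing a log2FC by the square root of its F. RPKM used the total count of each sample and the union of exons. Alternatives were DESeq2 1.42.0, limma voom (limma 3.58.1), other scalings and filters, a cutoff of 0.05, the replicate number or embryo sex (read from Xist and Y-linked genes) as a term, and leaving out each sample in turn.

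The 10 genes and the other lists were chosen with earlier results of these data known. Named beside the 10 are the up to 4 genes of each further pathway list with the smallest p-values. *Itgav*, *Itgb6*, *Smad2*, *Smad4* and single markers were named after their values were seen, and *Ltbp3*, *Ltbp4*, *Furin* and *Thbs1* were plotted likewise. Replicates differed by 3.42 to 19.1 times the sampling noise (chi-square per gene), so none was counted as a repeat of another.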

Additional observations from a re-analysis of the deposited data

Results flagged for a closer look

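By Dixon's test for 4 samples, at the 95% level, 6 of 60 groups of the genes named had 1 sample that stood apart, where chance gives about 1 in 20. Control replicate 3 was that sample in 3 of them. It had 3778 normalized counts of *Tgfbr1*, against 4608 to 4776 in the other controls, and 3522 of *Skil*, against 4501 to 4592. It had 3161 of *Pmepa1*, against 2730.5 to 2781 in the other controls, so that it was lower in the first pair of genes and higher in this one. CKO replicate 1 had 864 normalized counts of *Smad3*, against 1066 to 1097 in the other CKO samples. CKO replicate 2 had 83.6 of *Bhlhe40*, against 103.5 to 106 in the other CKO samples. Control replicate 2 had 43.7 of *Snai2*, against 28.5 to 30.4 in the other controls. *Pmepa1* passed the cutoff with any 1 sample left out, and *Tgfbr1*, *Skil* and *Smad3* passed it in none of those fits.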

How the results depend on the processing

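*Tgfb2*, *Tgfb3* and *Pmepa1* fell past the cutoff in all 17 alternative fits, over log2FC values of -1.62 to -1.54, -1.07 to -0.85 and -1.33 to -1.19. The count of members past the cutoff stayed at 3, and was 4, with *Smad3*, with no filter on low counts, without CKO replicate 1 and control replicate 3 together (a setting added after the data were seen) and at a cutoff of 0.05. Over all genes, against 1196, the count was 2390 with DESeq2, 2055 with no filter, 2104 without those samples together, 4619 at 0.05, 676 with the replicate block and 686 to 1553 in fits without 1 sample. For the latent complex (3) it was 7 with DESeq2, 6 with no filter, 6 without both samples, 8 at 0.05 and 2 to 5 without 1 sample. For the other receptors (2) it was 5, 4, 4 and 7 under the same settings and 2 to 4 without 1 sample. For activin, nodal and GDF genes (0) it was 1 with DESeq2, 1 with no filter and 2 at 0.05, and 0 to 0 without 1 sample. For Smad transduction (1) it was 4 with DESeq2, 3 with no filter, 4 at 0.05, 0 with the replicate block and 0 to 2 without 1 sample. For TGF-beta induced genes (2) it was 4 with DESeq2, 9 at 0.05, 0 with the replicate block and 0 to 3 without 1 sample. Of the genes called, *Ltbp1*, *Smurf1*, *Bhlhe40* and *Col1a2* lost the call with the replicate block (adjusted p 0.00192, 0.00187, 0.00239 and 0.00241 in edgeR), and the block ended no other call among the 10 genes and the genes named from the 5 further pathway lists. Same-numbered samples did not deviate from their group means together (correlations of 0.13, -0.15, 0.05 and -0.12), so the numbers were not taken as pairs.

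Signs turned only where no call was made: the log2FC of *Tgfbr1* was -0.046 without control replicate 3 and -0.034 without both samples, over -0.046 to 0.061 without 1 sample, that of *Skil* was -0.085 without both, over -0.034 to 0.088 without 1 sample, and that of *Tgfbr3* was 0.036 with voom, 0.011 with the block and 0.070 with sex as a covariate, over -0.24 to 0.19 without 1 sample. The cause was not tested. *Tgfb1* failed the filter in 3 of the fits without 1 sample. With 4 samples per genotype and few reads, the intervals of *Tgfb1*, *Tgfbr2* and *Tgfbr3* are the widest of the 10 genes. Other scalings moved the median of all genes by 0.01 and -0.03 on the log2 scale.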
